A study of Mus musculus with 12 samples.

Results

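The question was whether the liver's response to an acetaminophen (APAP) overdose differed between mice that had drunk 3-phenylpropionic acid (PPA), a small phenyl-bearing acid produced by intestinal microbes, and mice on plain water. For each gene the change from 0 h to 6 h after APAP in control mice was subtracted from the same change in PPA mice, on the scale of log2(FPKM + 1). FPKM counts fragments relative to transcript length and library total. A negative difference means a smaller rise or a deeper drop in PPA mice. All 12 of the study's 12 liver libraries entered the comparison, and 10044 of 24340 gene rows reached the required level of 1 FPKM in at least 3 libraries and were tested.

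The mice were C57BL/6 from Taconic. One arm had PPA in the water for 4 weeks and the other had plain water, both were fasted overnight for 16 h, and APAP was injected into the abdomen at 300 mg/kg. Livers were taken at 0 h or 6 h, which gives 4 groups of 3 libraries: CTL_0h, PPA_0h, CTL_6h and PPA_6h, each name followed by the replicate number. The labels do not make clear whether 0 h mice were injected, and no group was fasted for the extra 6 h without APAP, so APAP, time of day and longer fasting cannot be told apart. The labels give neither sex, age nor the dose of PPA, and do not state whether each library is a different mouse. The p-values thus measure only the spread between libraries, which may be technical.

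APAP is oxidised in hepatocytes around the central vein to a reactive product that is detoxified with glutathione. In overdose glutathione runs out, proteins are damaged and stress kinases switch on immediate early and stress genes within hours. The fasted liver at the same time makes glucose and ketone bodies under glucagon, glucocorticoids and PPAR-alpha, the nuclear receptor for fatty acids.

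The 12 libraries held 9277 to 9535 genes at 1 FPKM or more, and the steps between low values gave an estimated depth of 3220000 to 4990000 fragments at 0 h and 6930000 to 10110000 at 6 h, so low levels are less precise at 0 h. In the same fit 2704 of 10044 genes changed after APAP in control mice (26.9%) and 2843 in PPA mice (28.3%). Muscle transcripts stood out in a single library, CTL_6h_4, where 15 markers summed to 156.1 FPKM against at most 4.15 in every other library. Both Alb, at 0 in every library taken at 6 h, and Apoe, at 0 in CTL_6h, were left out.

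The difference between the responses passed the test (adjusted p under 0.05, limma with Benjamini-Hochberg adjustment) for 0 genes in the higher direction and for 1 gene, H2-Q8, in the lower direction, which is 0.00996% of the tested genes. At an unadjusted p under 0.05 390 genes had a positive (3.88%) and 540 a negative difference (5.38%), together 930 or 9.26%, and 47.7% of all estimates lay above 0. The median difference over all tested genes was -0.02. The count of calls depended on single 6 h libraries: without CTL_6h_3 there were 48 calls, 13 higher and 35 lower, and without PPA_6h_5 there were 16, 5 higher and 11 lower. Leaving out any of the other 10 libraries gave at most 1 call.

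The size of the response was set side by side for all called genes and for the strongest responders. The response averaged over both arms was called higher for 23.0% and lower for 20.8% of the genes. Over the 2306 genes called higher the median change was 0.57 in control and 0.56 in PPA mice. Over the 2092 genes called lower it was -0.48 and -0.50, so the medians of the arms were nearly equal. Over the 114 genes whose response averaged over both arms was called and at least 2 on the log2 scale, the median change was 3.05 in control and 2.66 in PPA mice. The 12 genes that dropped by at least 2 had median changes of -2.01 and -2.81. These medians come from the same 12 libraries as the difference itself and are a description.

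**Figure D1:**
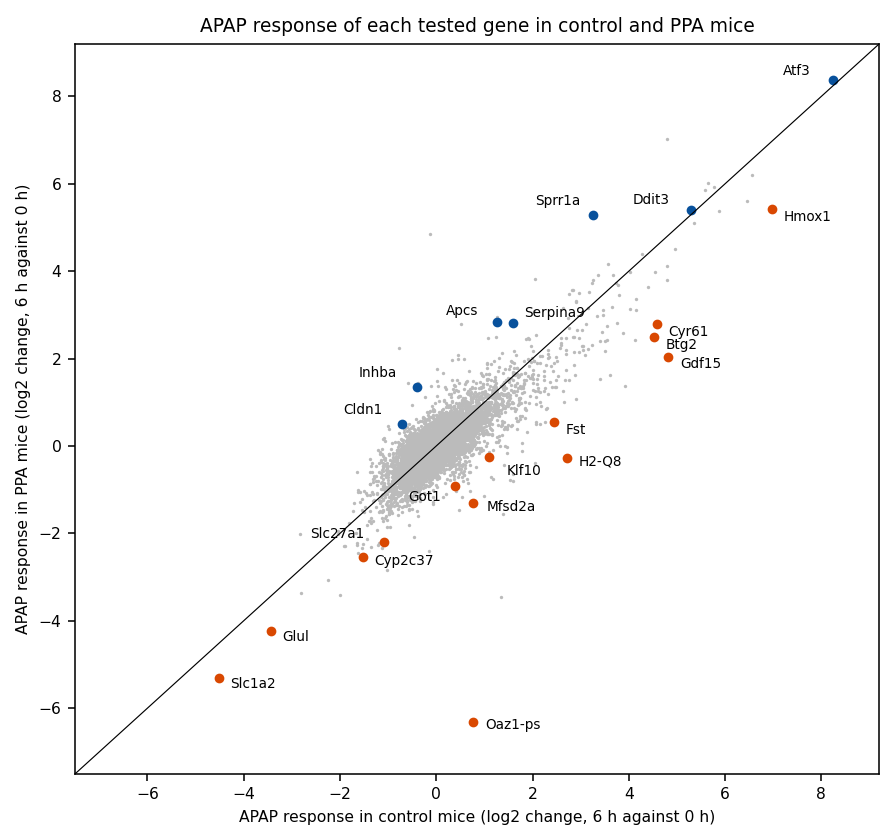
Change from 0 h to 6 h in control mice (x axis) and in PPA mice (y axis), both as log2 ratios of FPKM + 1, for the 10044 tested genes. Grey points are genes, coloured points are genes named in the text (orange with a negative and blue with a positive difference), and the line marks equal responses; Hmox1, at 6.97 and 5.41, lies below it and Sprr1a, at 3.26 and 5.29, above it.

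H2-Q8, the one gene past the test, is a class Ib major histocompatibility gene of the H2-Q cluster, whose members are close copies of each other. It was listed at 0.0016, 0.0015 and 0.0016 FPKM in the CTL_0h libraries and at 9.81, 7.04 and 7.94 in PPA_0h. At 6 h it stood at 3.89, 9.31 and 4.72 in CTL_6h and at 9.57, 6.99 and 4.22 in PPA_6h. The arms were thus far apart at 0 h and overlapped at 6 h. Its difference was -2.99 ± 0.39 (log2 ± SE, adjusted p = 0.0386 in limma), and because CTL_0h lies at the floor, that size is set by the pseudocount. The CTL_0h libraries also add almost no spread to the estimate shared by all groups, so the SE and p may be too small.

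The neighbouring copy H2-Q6 had the mirror pattern, with 5.75, 9.54 and 10.1 FPKM in CTL_0h but 0.005, 0.001 and 0.003 in PPA_0h. At 6 h H2-Q6 was at 10.05, 3.73 and 5.93 in CTL_6h and 0.199, 1.59 and 5.38 in PPA_6h. The sum of both copies ran from 5.75 to 10.1 FPKM in CTL_0h, 7.04 to 9.82 in PPA_0h, 10.6 to 13.9 in CTL_6h and 8.58 to 9.77 in PPA_6h. With both rows summed, an alternative chosen after seeing the data, the difference was -0.38 (adjusted p = 0.667 in limma), and with all H2-Q rows summed it was -0.30 (adjusted p = 0.714). Over all alternatives the adjusted p of H2-Q8 ran from 9.79e-05 to 0.714, and 0 genes were called once the copies were summed. Whether fragments were divided between the copies in the same way in every library was not tested. H2-Q8 missed the threshold without any 1 of CTL_0h_1, CTL_0h_3, CTL_0h_4, PPA_0h_2, PPA_0h_4, PPA_0h_5, CTL_6h_4 or PPA_6h_2, at an adjusted p of up to 0.159.

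**Figure D2:**
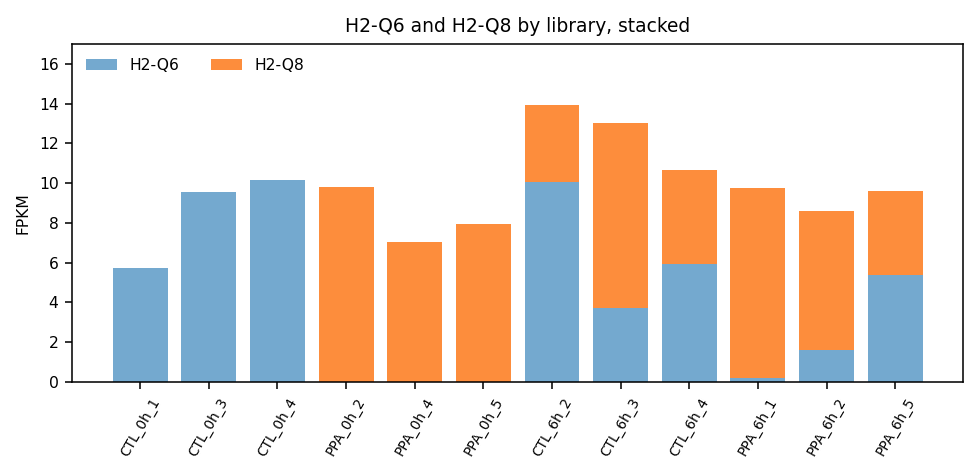
Stacked FPKM of H2-Q6 (blue) and H2-Q8 (orange) in each of the 12 libraries. H2-Q6 alone is seen in CTL_0h and H2-Q8 alone in PPA_0h, both are present at 6 h, and the stack runs from 5.75 to 13.9 FPKM.

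After H2-Q8, the smallest adjusted p-values belonged to 4 genes that did not pass the threshold. Slc27a1 (chromosome 8, 71568882 to 71587302, plus strand in GRCm38) encodes a fatty acid transporter and is a PPAR-alpha target. Its values were 21.01, 19.8 and 21.9 FPKM in CTL_0h, 19.9, 24.5 and 22.3 in PPA_0h, 9.83, 8.704 and 9.56 in CTL_6h and 4.02, 3.44 and 4.67 in PPA_6h. All PPA_6h libraries lay below all CTL_6h libraries, while the 0 h groups overlapped. Slc27a1 fell in both arms, by -1.08 ± 0.12 in control and -2.2 ± 0.12 in PPA mice, with a difference of -1.12 ± 0.17 (adjusted p = 0.0958 in limma).

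Calcoco1, which encodes a receptor for autophagy of the endoplasmic reticulum, had the same adjusted p and was chosen after its values were seen. It was at 10., 13.6 and 11.8 FPKM in CTL_0h, 15.03, 18.5 and 16.6 in PPA_0h, 9.01, 9.001 and 8.38 in CTL_6h and 5.07, 4.04 and 5.45 in PPA_6h. The PPA libraries were the higher ones at 0 h and the lower ones at 6 h without overlap at either time. That crossing occurred in 49 of 10044 genes (0.488%), and the opposite crossing in 37 (0.368%). Calcoco1 fell in PPA mice (-1.6 ± 0.14) and had a change of -0.38 ± 0.14 in control mice that was not called.

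Apcs (chromosome 1, 172893961 to 172895041, minus strand) encodes serum amyloid P component, a pentraxin and acute phase protein of the mouse. Its levels were 51.03, 69.95 and 48.1 FPKM in CTL_0h, 38.7, 36.01 and 51.4 in PPA_0h, 108, 163 and 138 in CTL_6h and 273, 300.5 and 331 in PPA_6h. It rose in both arms and every PPA_6h library exceeded every CTL_6h library. The rise was 1.26 ± 0.19 in control and 2.83 ± 0.19 in PPA mice, a difference of 1.57 ± 0.26 (adjusted p = 0.104 in limma). Serpina9, a serpin gene on chromosome 12, was listed at 0 in all 0 h libraries, at 1.58, 2.59 and 1.95 FPKM in CTL_6h and at 5.93, 5.33 and 6.95 in PPA_6h. Its difference, 1.22 ± 0.20, is therefore that of the 6 h groups (adjusted p = 0.104 in limma). The fit shares 1 estimate of spread over all groups, and the 0 h libraries, all at 0, add none. This SE and p may thus be too small for the 6 h groups. Without CTL_6h_3 the adjusted p was 0.0212 for Slc27a1, 0.0337 for Calcoco1, 0.0212 for Apcs and 0.016 for Serpina9. Over all alternatives it ran from 0.0062 to 0.375 for Slc27a1 and Calcoco1, from 0.0062 to 0.375 for Apcs and from 0.0062 to 0.468 for Serpina9. Each of these low ends came from the fit with sample quality weights, which stopped before it converged. The same holds for the low ends given below for Sprr1a, Cldn1, Inhba, Fst, Klf10, Cyr61, Gdf15, Bbc3 and Hmox1.

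**Figure D3:**
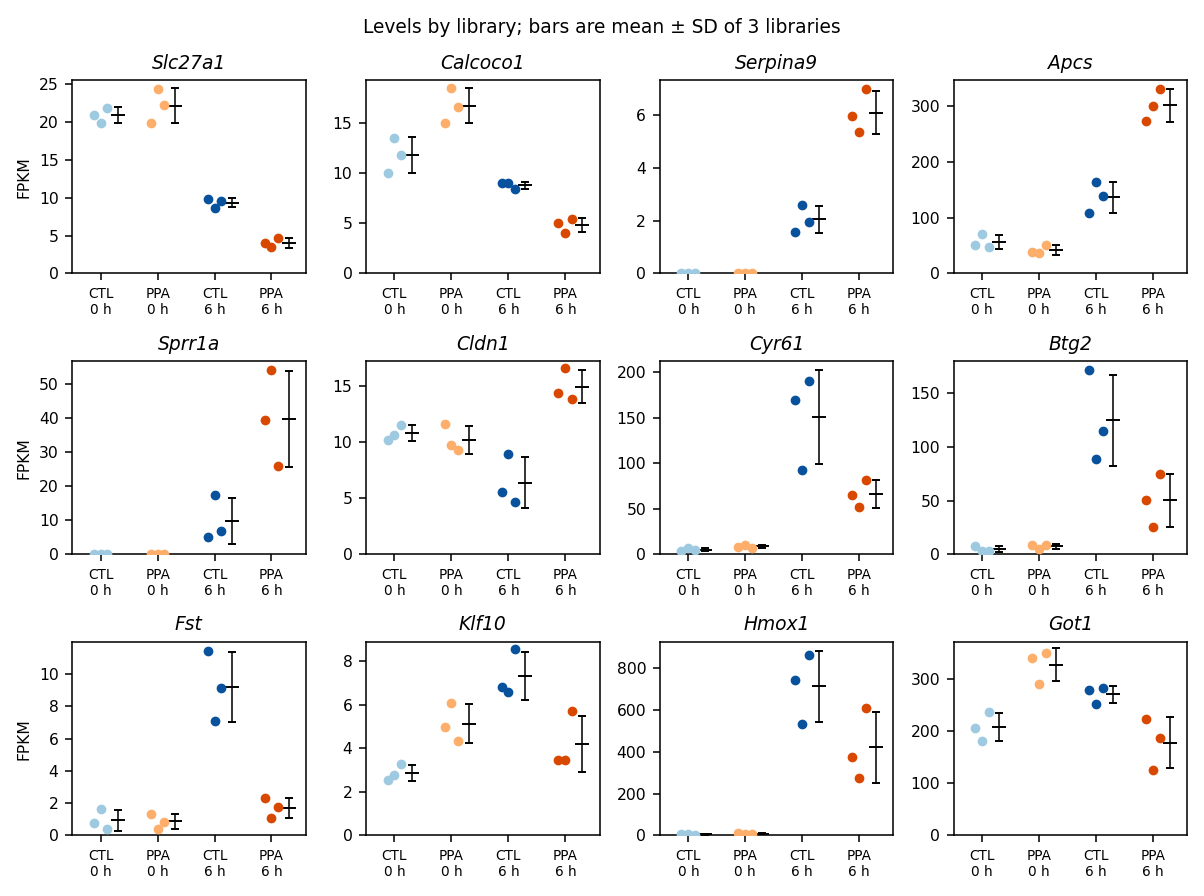
FPKM in each library of 12 genes, by group, with points for libraries and bars for mean ± SD of 3 libraries (none where all 3 are at 0). In Slc27a1, Calcoco1, Cyr61, Btg2, Fst, Klf10 and Got1 the PPA_6h points lie below all CTL_6h points, and in Serpina9, Apcs, Sprr1a and Cldn1 above them; the 6 h groups of Hmox1 overlap.

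Other genes with a positive difference at unadjusted p under 0.05 are described next, and none passed the threshold. As groups, hepatokines and secreted factors had 1 positive and 4 negative of 28 (17.9%, against 9.26% of all genes; median -0.14), and tight junction genes had 2 positive and 1 negative of 23 (13.0%; median 0.04), the negative one being Cldn14, a further claudin, at -1.18 ± 0.54. Sprr1a, a cornified envelope gene induced in stressed epithelia, was listed at 0 at 0 h, at 4.99, 17.5 and 6.99 FPKM in CTL_6h and 39.3, 53.9 and 25.9 in PPA_6h. The 6 h groups did not overlap, and CTL_6h_3 was the highest control library. The difference was 2.02 ± 0.47 (adjusted p = 0.314 in limma, 0.0062 to 0.659 over the alternatives, the lowest leave-one-out value being 0.016 without CTL_6h_3). As for Serpina9, the zeros at 0 h add no spread, so the SE and p may be too small.

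Cldn1 encodes claudin 1, a barrier protein of tight junctions between hepatocytes. It had 10.2, 10.7 and 11.6 FPKM in CTL_0h, 11.6, 9.77 and 9.301 in PPA_0h, 5.61, 8.99 and 4.67 in CTL_6h and 14.4, 16.6 and 13.9 in PPA_6h. Cldn1 fell in control mice (-0.71 ± 0.18) and rose in PPA mice (0.51 ± 0.18, adjusted p = 0.0491 in limma). The difference of 1.22 ± 0.25 had an adjusted p of 0.265, and of 0.016 without CTL_6h_3, within 0.0062 to 0.659 over the alternatives.

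Inhba encodes the activin A subunit, a TGF-beta family signal that restrains hepatocyte growth, and Fst encodes follistatin, which binds and blocks activin. Inhba had 1.66, 1.38 and 2.13 FPKM in CTL_0h, 0.813, 1.29 and 2.42 in PPA_0h, 0.562, 2.07 and 0.794 in CTL_6h and 5.13, 7.82 and 3.44 in PPA_6h. Fst had 0.766, 1.66 and 0.368 FPKM in CTL_0h, 1.31, 0.424 and 0.851 in PPA_0h, 11.4, 7.09 and 9.16 in CTL_6h and 2.303, 1.09 and 1.75 in PPA_6h. The pair lay on opposite sides at 6 h, with all PPA_6h libraries above the controls for Inhba and below them for Fst. The difference was 1.76 ± 0.43 for Inhba (adjusted p = 0.314 in limma, 0.0498 without CTL_6h_3) and -1.89 ± 0.37 for Fst (adjusted p = 0.248, 0.0485 without CTL_6h_3). Fst rose in control mice (2.44 ± 0.26) and had a change of 0.55 ± 0.26 in PPA mice that was not called. Over the alternatives the adjusted p ran from 0.0132 to 0.713 for Inhba and from 0.0172 to 0.659 for Fst.

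Ndrg1, a gene induced by hypoxia and stress, rose in PPA mice (1.5 ± 0.16) and had 0.43 ± 0.16 in control mice, where it was not called. Gmppb, an enzyme that makes GDP-mannose for protein glycosylation, was at 9.898, 14.7 and 9.37 FPKM in CTL_6h and 32.3, 38.8 and 16.9 in PPA_6h. Ccnd1, cyclin D1 of the G1 phase, was at 2.103, 4.49 and 2.49 in CTL_6h and 8.297, 18.9 and 5.68 in PPA_6h, with a rise called in PPA mice (2.0 ± 0.34). In these 3 genes no PPA_6h library overlapped a control library, and the differences were 1.07 ± 0.22, 1.13 ± 0.35 and 1.42 ± 0.48. PPA libraries lay above every control library at 6 h in 6.58% of all tested genes. Serpina4-ps1 (1.68 ± 0.44), 1810022K09Rik (1.34 ± 0.28) and Snhg9 (1.61 ± 0.35) completed the 10 highest estimates. The last, a small nucleolar RNA host gene, lies antisense to another transcript, and whether fragments were counted by strand is not given in the sources used here.

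Immediate early genes, which transcription factors switch on within minutes of a signal, had mostly negative estimates of the difference. Of 34 tested genes on this list 0 were called in the difference, 0 had a positive and 11 a negative difference at unadjusted p under 0.05 (32.4%, against 9.26% of all genes), and 31 estimates lay below 0. The median difference was -0.71, against -0.02 over all genes, and ran from -0.93 to -0.51 when 1 library was left out. The 3 scalings of the libraries raised the medians of all lists, by 0.003 to 0.123, so they reverse only medians that lie near 0. The mean level of the list at 6 h, in log2(FPKM + 1), was 5.83, 5.19 and 5.63 in the CTL_6h libraries and 5.02, 4.63 and 5.27 in PPA_6h. CTL_6h_3, the lowest control, lay below PPA_6h_5.

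Btg2, an antiproliferative target of p53 and of growth signals, was at 7.79, 2.798 and 3.33 FPKM in CTL_0h, 9.17, 5.06 and 8.44 in PPA_0h, 171, 88.5 and 115 in CTL_6h and 50.9, 25.2 and 74.6 in PPA_6h. Klf10, a Kruppel-like factor induced by TGF-beta, was at 2.54, 2.76 and 3.26 FPKM in CTL_0h, 4.98, 6.07 and 4.33 in PPA_0h, 6.804, 6.58 and 8.56 in CTL_6h and 3.44, 3.46 and 5.69 in PPA_6h. Both rose in control mice (Btg2 by 4.53 ± 0.39, Klf10 by 1.11 ± 0.18) and all PPA_6h libraries lay below all CTL_6h libraries. In PPA mice Btg2 rose by 2.49 ± 0.39, and Klf10 had a change of -0.25 ± 0.18 that was not called. The difference was -2.04 ± 0.56 for Btg2 (adjusted p = 0.398 in limma) and -1.36 ± 0.25 for Klf10 (adjusted p = 0.177, 0.0485 without CTL_6h_3 and 0.0286 without PPA_6h_5, within 0.0113 to 0.447 over the alternatives). Fosl2, an AP-1 subunit, and Mafk, a small Maf partner of NRF2, rose in both arms with differences of -0.98 ± 0.23 and -0.94 ± 0.24. Atf3, the list's strongest responder, rose to 432, 513 and 446 FPKM in CTL_6h and 397, 464 and 503 in PPA_6h. These groups overlapped, and the difference was 0.13 ± 0.26 with a 95% interval of -0.44 to 0.69 (adjusted p = 0.907 in limma).

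The wound response list holds targets of YAP, a coactivator that acts through the DNA-binding TEAD factors when cells are stretched or injured, and cytoskeletal genes. Of its 47 tested members 2 had a positive and 6 a negative difference at unadjusted p under 0.05 (17%, against 9.26% of all genes), 40 estimates lay below 0, and the median was -0.29. The median was -0.18 without CTL_6h_4, the library with muscle transcripts and the highest level of this list (4.88), -0.14 without PPA_6h_2 and -0.43 without PPA_6h_5. Cyr61, a matricellular protein and YAP target also named Ccn1, was at 3.55, 6.69 and 5.34 FPKM in CTL_0h, 8.03, 10.9 and 7.24 in PPA_0h, 169, 92.1 and 190.2 in CTL_6h and 64.7, 52.2 and 81.98 in PPA_6h. Amotl2, an angiomotin that holds YAP back and is itself a target, was at 5.204, 9.36 and 8.96 FPKM in CTL_0h, 10.1, 11.2 and 9.31 in PPA_0h, 23.2, 17.99 and 19.2 in CTL_6h and 10.1, 10.8 and 12.1 in PPA_6h. The PPA_6h libraries lay below all CTL_6h libraries for both genes, CTL_6h_3 being the nearest control. Cyr61 rose by 4.58 ± 0.27 in control and 2.79 ± 0.27 in PPA mice, a difference of -1.79 ± 0.38 (adjusted p = 0.287 in limma, 0.0212 without CTL_6h_3, within 0.00764 to 0.659 over the alternatives). Amotl2 rose by 1.29 ± 0.18 in control mice, had 0.10 ± 0.18 in PPA mice without a call, and differed by -1.19 ± 0.25 (adjusted p = 0.287). Tuba1b, an alpha tubulin, stood on the other side with 0.85 ± 0.27.

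The windows from 250 bases before to 50 after the RefSeq start (GRCm38.p6) are shown for 2 YAP targets and for 2 stress genes whose negative differences had an unadjusted p under 0.01, chosen because each window holds one of the motifs. Windows were searched on both strands for GGAATG, the TEAD core, which reads CATTCC on the other strand, and for TGACGTCA, the cAMP response element (CRE), which is its own reverse complement and does not overlap the TEAD core. Capitals mark the match.
Cyr61 (chr3:145649936-145650235, minus strand): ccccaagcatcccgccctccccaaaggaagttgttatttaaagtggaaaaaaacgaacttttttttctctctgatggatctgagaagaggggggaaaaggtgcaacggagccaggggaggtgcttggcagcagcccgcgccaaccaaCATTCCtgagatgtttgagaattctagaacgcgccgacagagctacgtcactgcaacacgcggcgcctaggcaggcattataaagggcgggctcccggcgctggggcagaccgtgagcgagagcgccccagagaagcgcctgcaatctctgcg
Amotl2 (chr9:102717554-102717853, plus strand): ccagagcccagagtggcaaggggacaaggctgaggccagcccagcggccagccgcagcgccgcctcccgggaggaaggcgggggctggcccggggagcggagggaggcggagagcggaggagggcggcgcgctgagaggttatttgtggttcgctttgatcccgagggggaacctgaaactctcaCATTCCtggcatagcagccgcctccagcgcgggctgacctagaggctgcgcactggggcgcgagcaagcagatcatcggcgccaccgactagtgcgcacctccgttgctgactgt
Btg2 (chr1:134079106-134079405, minus strand): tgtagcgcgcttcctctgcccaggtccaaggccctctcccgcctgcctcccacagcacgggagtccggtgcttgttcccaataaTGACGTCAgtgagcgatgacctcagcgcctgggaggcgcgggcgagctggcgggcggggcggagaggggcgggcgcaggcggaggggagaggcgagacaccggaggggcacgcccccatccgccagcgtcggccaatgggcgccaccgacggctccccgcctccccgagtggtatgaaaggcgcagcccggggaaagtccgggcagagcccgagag
Ppp1r15a (chr7:45526219-45526518, minus strand): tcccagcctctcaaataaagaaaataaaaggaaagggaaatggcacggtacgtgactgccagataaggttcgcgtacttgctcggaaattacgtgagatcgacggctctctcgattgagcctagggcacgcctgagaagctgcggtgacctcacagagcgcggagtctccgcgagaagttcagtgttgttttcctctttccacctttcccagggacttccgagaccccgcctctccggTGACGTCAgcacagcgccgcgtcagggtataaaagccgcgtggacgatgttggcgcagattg
The TEAD core was found in 12 of 41 wound response genes with a window (29.3%) and in 16.6% of 27025 genes. Higher or similar shares occurred in bile acid genes (34.5%) and pericentral genes (25.7%). The CRE was found in 5 of 32 immediate early genes (15.6%) and in 2.03% of all genes. It was found in 1 of 32 integrated stress response genes (3.12%), the list that holds Ppp1r15a. Shares above that of all genes also occurred in glucocorticoid response (2 of 20), ribosomal protein (5 of 56, 8.93%) and p53 pathway genes (8.7%). PPAR-alpha targets had 0 of 42. A match describes the letters in the window and does not show binding.

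Ppp1r15a encodes GADD34, the phosphatase subunit that ends the integrated stress response, the programme that slows translation under stress. It was at 63.6, 50.9 and 64.4 FPKM in CTL_6h and 36.1, 33.5 and 52.2 in PPA_6h, groups that overlapped by PPA_6h_5 and CTL_6h_3, and its rise was 3.23 ± 0.21 in control and 2.3 ± 0.21 in PPA mice. Of 32 tested genes of this response 2 had a positive and 4 a negative difference at unadjusted p under 0.05 (18.8%, against 9.26% of all genes), and the median of -0.02 lay close to 0, with -0.17 to 0.15 when 1 library was left out and a change of sign under 2 of 3 scalings. Ddit3, the CHOP transcription factor of this pathway, was at 443, 708 and 562 in CTL_6h and 775, 391 and 1064 in PPA_6h. It rose in both arms, and the difference of 0.12 ± 0.44 had a 95% interval of -0.83 to 1.07. Gdf15, a secreted stress signal that suppresses appetite, was at 866, 171 and 1054 in CTL_6h and 88.2, 65.7 and 246 in PPA_6h. Gdf15 rose in both arms, CTL_6h_3 lay within the PPA_6h range, and the difference of -2.78 ± 0.88 had an adjusted p of 0.457 in limma (0.0427 without CTL_6h_3, 0.0129 to 0.829 over the alternatives).

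Genes of the p53 pathway had 0 positive and 4 negative differences at unadjusted p under 0.05 among 23 tested (17.4%, against 9.26% of all genes), with a median of -0.23. That median was -0.52 without PPA_6h_5, -0.40 without PPA_0h_4, -0.37 without CTL_0h_1 and -0.13 without CTL_0h_3. Bbc3, the BH3-only killer protein PUMA, was at 11.5, 12.4 and 7.75 FPKM in CTL_0h, 12.2, 14.9 and 11.9 in PPA_0h, 28.7, 18.8 and 31.4 in CTL_6h and 12.4, 14.2 and 15.3 in PPA_6h. It rose in control mice (1.23 ± 0.20), while PPA mice had 0.09 ± 0.20 without a call, and the difference was -1.14 ± 0.28 (adjusted p = 0.322 in limma, 0.0386 without CTL_6h_3, 0.0129 to 0.738 over the alternatives). Cdkn1a, the cell cycle inhibitor p21, rose in control mice (2.16 ± 0.37) and had 0.51 ± 0.37 in PPA mice, where it was not called. Its 6 h groups overlapped by PPA_6h_5 and CTL_6h_3, and the difference was -1.65 ± 0.53 (adjusted p = 0.457 in limma).

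Genes of the fasting response were among the lists with the lowest medians. Glucocorticoid response genes had 1 positive and 11 negative differences at unadjusted p under 0.05 among 24 tested (50%, against 9.26% of all genes), and a median of -0.71. Genes of gluconeogenesis and the pyruvate switch had 0 and 12 of 30 (40%) with a median of -0.49, ketone body and fat breakdown genes 0 and 8 of 21 (38.1%) with -0.35, and PPAR-alpha targets 0 and 13 of 56 (23.2%) with -0.47. No member was called in the difference. Leaving out 1 library gave medians of -0.94 to -0.63 for glucocorticoid response genes and -0.54 to -0.44 for gluconeogenesis. The ketone and fat breakdown median was -0.67 without PPA_6h_5 and -0.21 without PPA_6h_2, and that of PPAR-alpha targets -0.70 without PPA_6h_5 and -0.30 without PPA_6h_1. The lists share members, 7 of them between the 56 PPAR-alpha targets and the 21 ketone and fat breakdown genes (12.5% and 33.3%).

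The mean level of gluconeogenesis genes at 6 h was 5.38, 5.23 and 5.35 in the CTL_6h libraries and 4.91, 4.7 and 4.99 in PPA_6h, in log2(FPKM + 1), without overlap. At 0 h it was 4.93, 5.12 and 5.09 in CTL_0h and 5.21, 4.96 and 5.15 in PPA_0h, with overlap. Glucocorticoid response genes stood at 6.83, 6.62 and 6.8 in CTL_6h and 6.46, 6.09 and 6.58 in PPA_6h, without overlap. At 0 h these genes were at 5.85, 5.52 and 5.94 in CTL_0h and 6.13, 5.93 and 6.26 in PPA_0h, where PPA_0h_4 lay below CTL_0h_4. The median gap of PPA to control was 0.38 at 0 h and -0.41 at 6 h. PPAR-alpha targets stood at 6.79, 6.71 and 6.92 in CTL_6h and 5.64, 5.65 and 6.73 in PPA_6h, so that PPA_6h_5 lay among the controls and the other PPA_6h libraries far below. At 0 h they were at 7.2, 7.08 and 7.19 in CTL_0h and 6.74, 7.07 and 6.91 in PPA_0h, with all PPA_0h libraries below the controls.

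**Figure D4:**
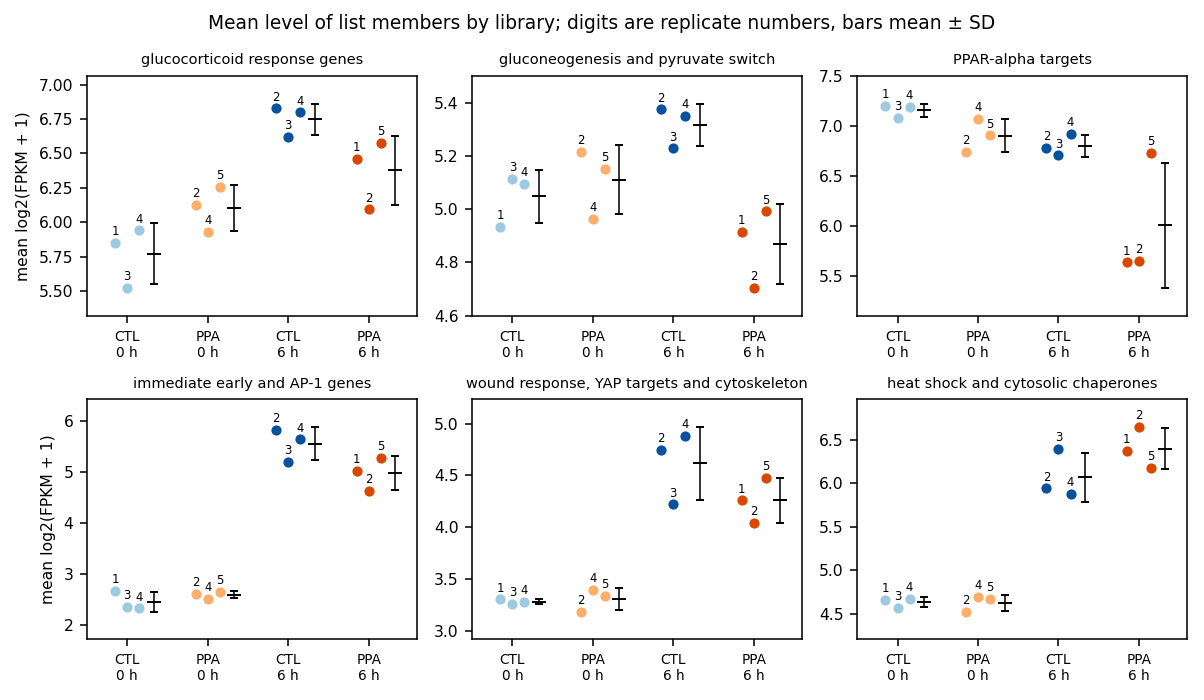
Mean log2(FPKM + 1) of the tested members of 6 gene lists in each library, by group, with replicate numbers beside the points and bars for mean ± SD of 3 libraries. At 6 h gluconeogenesis genes are lower in all PPA libraries, PPAR-alpha targets are low in PPA_6h_1 and PPA_6h_2 (5.64 and 5.65), and heat shock genes are high in PPA_6h and in CTL_6h_3.

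Of 63 amino acid catabolism genes, 3 lay above all controls at 0 h and below all controls at 6 h in every PPA library. The same held for 1 of 30 gluconeogenesis genes and for 0.488% of all tested genes. Got1, cytosolic aspartate aminotransferase, was at 206, 180.4 and 236 FPKM in CTL_0h, 339.7, 290.3 and 349.8 in PPA_0h, 278, 252 and 281 in CTL_6h and 222, 125 and 186 in PPA_6h. Tat, tyrosine aminotransferase and a classic glucocorticoid target, was at 709, 733 and 857 FPKM in CTL_0h, 1240.2, 933 and 1254 in PPA_0h, 1105, 1336 and 866 in CTL_6h and 854, 595 and 829 in PPA_6h. Neither group overlapped its counterpart at 0 h or at 6 h, with PPA above at 0 h and below at 6 h. Got1 and Tat fell in PPA mice (-0.91 ± 0.18 and -0.59 ± 0.19) and were not called in control mice (0.39 ± 0.18 and 0.51 ± 0.19), and the differences were -1.3 ± 0.26 (adjusted p = 0.248 in limma) and -1.1 ± 0.27 (adjusted p = 0.322). Pck1, the committed enzyme of gluconeogenesis, was at 1045, 1246 and 1066 FPKM in CTL_6h and 769, 786 and 652 in PPA_6h. It fell in both arms, more so by its estimate in PPA mice, with a difference of -0.73 ± 0.18. Slc25a25, a mitochondrial ATP-Mg carrier, was at 231, 185 and 225 in CTL_6h and 79.5, 50.5 and 122 in PPA_6h (-1.25 ± 0.40). For Pck1 and Slc25a25 the groups overlapped at 0 h. The 63 genes of amino acid catabolism had 0 positive and 9 negative differences at unadjusted p under 0.05 (14.3%, against 9.26% of all genes), with a median of -0.25 (-0.31 to -0.18 with 1 library left out).

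Lpin1, a phosphatidate phosphatase and coactivator induced by glucocorticoids, was at 8.85, 4.68 and 6.24 FPKM in CTL_0h, 23.7, 16.1 and 27.97 in PPA_0h, 10.5, 13.6 and 9.33 in CTL_6h and 16.99, 7.404 and 8.68 in PPA_6h. The arms were apart at 0 h only, and the difference was -1.72 ± 0.41 (adjusted p = 0.314 in limma). Pnpla2, adipose triglyceride lipase, was at 63.5, 59.1 and 66.5 FPKM in CTL_0h, 81.6, 81.9 and 92.5 in PPA_0h, 67.9, 75.1 and 71.6 in CTL_6h and 59.4, 30.2 and 56.2 in PPA_6h. It crossed from above to below the controls without overlap and fell in PPA mice (-0.86 ± 0.20). Lpin2, a related phosphatase, crossed in the same way (-0.90 ± 0.26). Angptl4, an inhibitor of lipoprotein lipase, was at 196, 135 and 249 in CTL_6h and 81.1, 62.1 and 144 in PPA_6h, where PPA_6h_5 exceeded CTL_6h_3 (-1.15 ± 0.38).

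Slc27a2, an acyl-CoA synthetase of peroxisomes, fell in PPA mice (-1.12 ± 0.16) and had -0.43 ± 0.16 in control mice without a call. The difference of Slc27a2 was -0.69 ± 0.23 (adjusted p = 0.457 in limma). Cpt1a, which admits fatty acids to mitochondria, was at 86.3, 114 and 80.5 in CTL_6h and 63.9, 56.1 and 87.4 in PPA_6h, overlapping groups with a difference of -0.47 ± 0.27. Ppara itself fell in both arms to 7.504, 11.8 and 8.88 in CTL_6h and 8.31, 13.2 and 9.24 in PPA_6h, with a difference of 0.07 ± 0.25 and a 95% interval of -0.48 to 0.62. Fgf21, a fasting hormone of the liver, was at 109.9, 62.2 and 65.2 in CTL_6h and 10.02, 12.1 and 78.4 in PPA_6h, so that PPA_6h_5 again lay with the controls (-1.17 ± 0.83, 95% interval -2.97 to 0.63). PPAR-alpha targets lay below the controls in every PPA_6h library in 17 of 56 cases, against 8.61% of all tested genes.

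Periportal genes, which mark hepatocytes at the inflow side of the lobule, had 0 positive and 9 negative differences at unadjusted p under 0.05 among 38 tested (23.7%, against 9.26% of all genes), and a median of -0.31 (-0.39 to -0.24 with 1 library left out). Asl, argininosuccinate lyase of the urea cycle, fell in PPA mice (-0.61 ± 0.16) and had 0.16 ± 0.16 in control mice, not called. The difference of Asl was -0.77 ± 0.23 (adjusted p = 0.445 in limma). Mfsd2a, a lysophospholipid transporter, was at 63.8, 50.1 and 61.1 FPKM in CTL_0h, 37.8, 53.6 and 84.1 in PPA_0h, 101, 87.6 and 109.9 in CTL_6h and 25.4, 10.1 and 40.4 in PPA_6h. All PPA_6h libraries were lower than all controls at 6 h, and Mfsd2a fell in PPA mice (-1.3 ± 0.38), with a difference of -2.06 ± 0.54 (adjusted p = 0.389 in limma).

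Pericentral genes, at the outflow side where APAP is activated, had 1 positive and 5 negative differences among 46 (13.0%, against 9.26% of all genes) and a median of -0.08, which ran from -0.15 to -0.03 when 1 library was left out. Glul, glutamine synthetase, was at 377, 356 and 357 FPKM in CTL_0h, 465, 394 and 412 in PPA_0h, 33.7, 43.1 and 23.9 in CTL_6h and 27.3, 17.1 and 21.5 in PPA_6h. Slc1a2, its companion glutamate transporter, was at 39.2, 37.6 and 40.5 FPKM in CTL_0h, 51.7, 40.6 and 40.8 in PPA_0h, 0.823, 1.44 and 0.2105 in CTL_6h and 0.256, 0.141 and 0.0227 in PPA_6h. Both fell in both arms, CTL_6h_4 lay within the PPA_6h range for each, and the differences were -0.79 ± 0.28 and -0.79 ± 0.29. At 6 h Slc1a2 was under 1 FPKM in every library but CTL_6h_3. The size of its difference thus depends on the pseudocount and cannot be set against that of Glul. Cyp2c37, a pericentral P450, was at 34.6, 31.6 and 33.7 in CTL_6h and 18.1, 18.6 and 11.8 in PPA_6h without overlap and fell in both arms (-1.02 ± 0.24, adjusted p = 0.314 in limma). Cyp8b1, which makes cholic acid, fell in both arms to 222, 211 and 254 in CTL_6h and 140.3, 113 and 161 in PPA_6h, again without overlap (-0.79 ± 0.20).

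Genes of APAP metabolism had 0 positive and 2 negative differences at unadjusted p under 0.05 among 34 tested (5.88%, below the 9.26% of all genes), and their median of -0.02 lay close to 0 and changed sign under 2 of 3 scalings. Cyp2e1, the main enzyme that forms the reactive product, was at 5395, 4991 and 5888 FPKM in CTL_0h, 5197, 5265 and 4757 in PPA_0h, 3261, 1840.1 and 2708 in CTL_6h and 1639, 2080.3 and 1850.5 in PPA_6h. It fell in both arms, and the difference of -0.36 ± 0.27 had a 95% interval of -0.95 to 0.23. Cyp1a2 had a difference of -0.01 ± 0.29, whose sign flipped under each of the 3 scalings, with an interval of -0.65 to 0.63. Cyp3a11 had -0.64 ± 0.43, with an interval of -1.56 to 0.29. Por, the reductase that feeds electrons to all of these P450s, was at 452, 434 and 464 FPKM in CTL_6h and 318, 189 and 346 in PPA_6h. Its PPA_6h libraries lay below all controls, it fell in PPA mice (-0.59 ± 0.20), and the difference was -0.98 ± 0.28.

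NRF2, the sensor of electrophiles, drives glutathione synthesis and detoxification. Its 40 tested targets had 1 positive and 3 negative differences at unadjusted p under 0.05 (10%, close to the 9.26% of all genes) and a median of 0.06, which ran from -0.02 without PPA_6h_1 to 0.16 without PPA_6h_5. Hmox1, the haem-degrading enzyme, was at 6.11, 4.396 and 3.504 FPKM in CTL_0h, 9.599, 7.13 and 8.63 in PPA_0h, 743, 531 and 863 in CTL_6h and 376, 277 and 609.8 in PPA_6h. It rose steeply in both arms, by 6.97 ± 0.27 in control and 5.41 ± 0.27 in PPA mice. PPA libraries were the higher ones at 0 h, the 6 h groups overlapped by PPA_6h_5 and CTL_6h_3, and the difference was -1.56 ± 0.38 (adjusted p = 0.314 in limma, 0.0443 without PPA_6h_5, 0.0113 to 0.688 over the alternatives). Gclc, which catalyses the limiting step of glutathione synthesis, rose to 256, 449.7 and 197 in CTL_6h and 419.5, 372 and 362 in PPA_6h, with CTL_6h_3 the highest of all. Its difference was 0.73 ± 0.34 with a 95% interval of -0.01 to 1.47. Srxn1, sulfiredoxin, rose in both arms and differed by 0.24 ± 0.24, interval -0.27 to 0.76. Mt1, a zinc-binding metallothionein, rose in both arms with a difference of -1.11 ± 0.48.

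Heat shock genes had a median of 0.26, which was 0.12 without PPA_6h_2. Of 31 tested members 5 had a positive and 0 a negative difference at unadjusted p under 0.05 (16.1%, against 9.26% of all genes), 24 estimates lay above 0 and none was called. Hspe1 and Hspd1, the mitochondrial chaperonins HSP10 and HSP60, share a head-to-head promoter region. Hspd1 was at 111, 102 and 107 FPKM in CTL_0h, 85.7, 98.9 and 99.1 in PPA_0h, 211, 328 and 187 in CTL_6h and 319.6, 457 and 291 in PPA_6h. It rose in both arms, PPA_0h lay below CTL_0h, and the 6 h groups overlapped because CTL_6h_3 exceeded PPA_6h_1 and PPA_6h_5. The difference was 0.74 ± 0.28 for Hspd1 and 0.77 ± 0.28 for Hspe1. The unfolded protein response of the endoplasmic reticulum had 0 positive and 2 negative of 25 (8.0%, against 9.26% of all genes), and its chaperone Hspa5 rose in both arms with a difference of -0.36 ± 0.26 and an interval of -0.92 to 0.21. Ribosomal protein genes had estimates above 0 in 70 of 76, and the median of 0.21 was 0.075 without CTL_0h_1, 0.12 without CTL_6h_3 and 0.086 with the replicate block, while 6 positive and 0 negative passed an unadjusted p of 0.05 (7.89%), below the 9.26% of all genes. Rpl26, with a difference of 4.98 ± 1.67, was listed at 0 in CTL_0h_4, CTL_6h_2 and all PPA_0h libraries. In every other library it was at 15.9 to 30.9 FPKM, and whether its zeros are failed estimates was not tested.

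**Figure D5:**
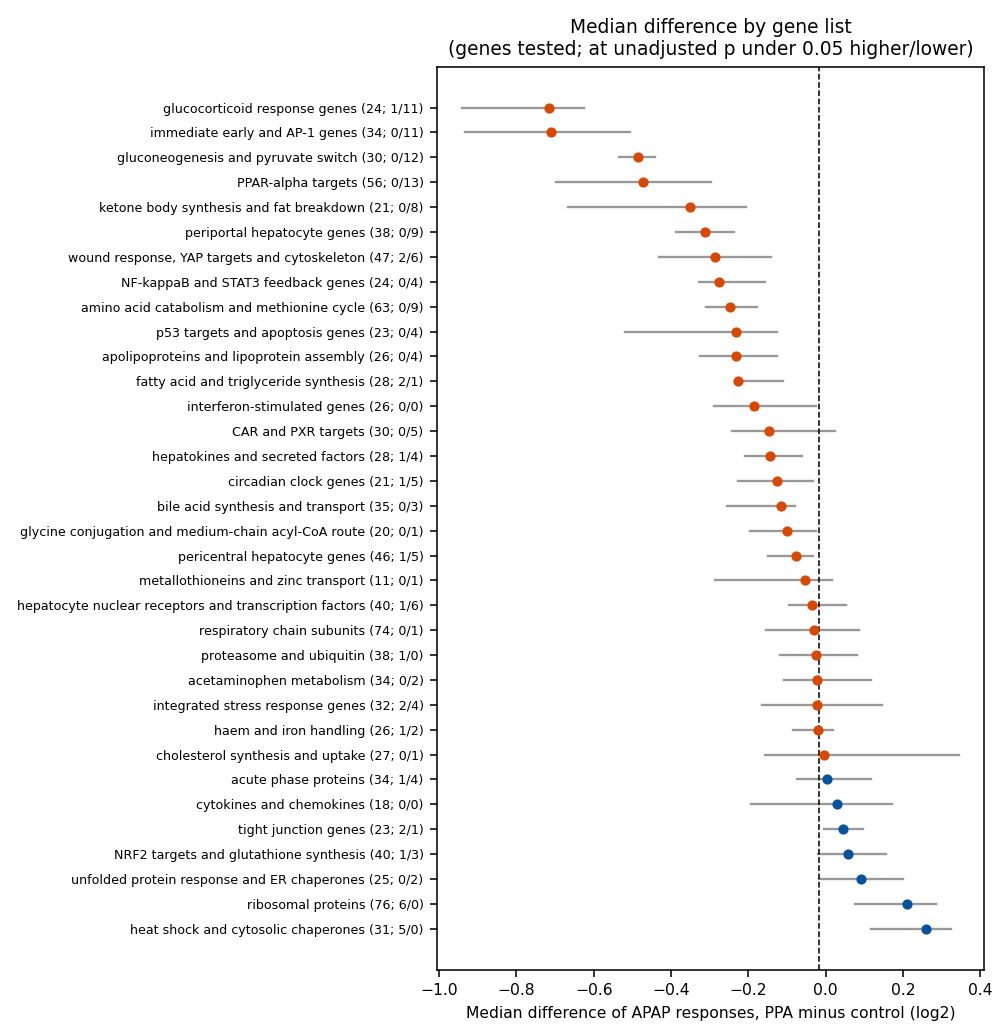
Median difference of the APAP responses for each of 34 gene lists (points, orange below and blue above 0), with the range of the median when each library was left out in turn (grey lines) and the median of all tested genes (dashed line, -0.02). Labels give the number of tested genes and how many had a positive and a negative difference at unadjusted p under 0.05; glucocorticoid response genes lie lowest at -0.71 and heat shock genes highest at 0.26.

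Among inflammatory genes, cytokines and chemokines had 0 of 18 and interferon-stimulated genes 0 of 26 at unadjusted p under 0.05 in either direction, with medians of 0.03 and -0.19. With 1 library left out these medians ran from -0.19 to 0.17 and from -0.29 to -0.03. Feedback genes of NF-kappaB and STAT3 had 0 positive and 4 negative of 24 (16.7%, against 9.26% of all genes), with a median of -0.28 that was -0.16 without CTL_0h_4. Il1r1, the receptor for interleukin 1, was at 2.72, 2.33 and 3.04 FPKM in CTL_0h, 6.22, 5.36 and 8.06 in PPA_0h, 23.97, 30.2 and 23.4 in CTL_6h and 26.99, 20.6 and 31.6 in PPA_6h. PPA libraries were higher than controls at 0 h and overlapped them at 6 h, and Il1r1 rose in both arms with a difference of -1.0 ± 0.25 (adjusted p = 0.324 in limma). Acute phase genes had 1 positive, Apcs, and 4 negative of 34 (14.7%, against 9.26% of all genes), and Lbp, the lipopolysaccharide binding protein, was at 80.4, 62.7 and 76.4 in CTL_6h and 56.5, 52.1 and 60.8 in PPA_6h (-0.50 ± 0.16). Clock genes had 1 positive and 5 negative of 21 (28.6%, against 9.26% of all genes), with a median of -0.13 that ran from -0.23 to -0.03 when 1 library was left out. Bhlhe40, a repressor in the clock that also responds to stress, rose in control mice (2.3 ± 0.31). In PPA mice it had 0.87 ± 0.31, just short of a call (adjusted p = 0.051 in limma). Its 6 h groups overlapped by PPA_6h_5 and CTL_6h_3, and the difference was -1.43 ± 0.43 (adjusted p = 0.457 in limma).

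In bulk tissue fewer cells of a type and less RNA per cell cannot be told apart. The 12 neutrophil markers in the table summed to 12.1 to 55.6 FPKM in CTL_6h and 17.8 to 25.0 in PPA_6h, against 0.51 to 4.28 at 0 h, with 1 marker, Camp, at 0 throughout. Of these 12, 8 were under 1 FPKM in every library and 3 were tested, so the neutrophil sum rests on few genes. CTL_6h_3 had the lowest sum of all 6 h libraries, and also the lowest immediate early and wound response levels among the controls. S100a8, a neutrophil protein, was at 20.01, 5.07 and 24.5 in CTL_6h and 7.55, 7.28 and 8.14 in PPA_6h. The 17 Kupffer cell and macrophage markers summed to 184.3 to 294.3 FPKM in CTL_6h and 173.0 to 267.5 in PPA_6h, and at 0 h to 131.4 to 240.4 in CTL_0h and 192.4 to 310.6 in PPA_0h. All 13 of these markers that were tested had a difference below 0, with 1 at unadjusted p under 0.05 (7.69%, against 9.26% of all genes) and a median of -0.42. That median was -0.14 without CTL_0h_4, -0.18 without PPA_6h_5, -0.22 without PPA_0h_5 and -0.25 without CTL_6h_4, and the median gap of PPA to control was 0.41 at 0 h and 0.10 at 6 h. At 6 h the 14 stellate cell and fibroblast markers summed to 134.1 to 204.9 in CTL_6h and 133.9 to 148.1 in PPA_6h, and the 18 sinusoidal endothelial markers to 91.4 to 111.7 and 95.4 to 120.3. The tissue label was liver, and its 11 hepatocyte markers in the table summed to 54922 to 64211 in CTL_6h and 47398 to 57756 in PPA_6h. Acta2, a smooth muscle and activated stellate cell gene, was at 0.476, 0.551 and 0.366 FPKM in CTL_0h, 3.26, 2.43 and 3.03 in PPA_0h, 1.15, 0.5499 and 6.47 in CTL_6h and 0.904, 0.8398 and 0.555 in PPA_6h, with a difference of -2.14 ± 0.58 and CTL_6h_4, the library with muscle transcripts, far above the other controls at 6 h. Of the remaining marker lists, 10 cholangiocyte markers summed to 24.7 to 58.2 FPKM in CTL_6h and 30.7 to 48.5 in PPA_6h, 11 lymphocyte markers to 1.05 to 2.49 and 2.05 to 2.30, and 9 erythroid markers to 269.9 to 744 and 316 to 498. Of the 11 lymphocyte markers 9 were under 1 FPKM in every library and 0 were tested. The 16 proliferation markers, 7 of them under 1 FPKM in every library, summed to 41.8 to 48.0 and 42.7 to 48.6. The 12 adipocyte and pancreas markers summed to 89.9 to 479.7 and 166 to 288. At 0 h they summed to 377.9 to 1000.7 in CTL_0h and 279.8 to 465.8 in PPA_0h. Of these 12, 7 were under 1 FPKM in every library, with Amy2a5, Cpa1, Ins2, Pnlip and Prss1 at 0 throughout, and 2 were tested. Their sum thus rests on few genes, and which cells these transcripts came from was not tested. The part of these cell types in the differences above was not tested.

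Among the 10 lowest estimates with unadjusted p under 0.01 and at least 5 FPKM in the highest group, further genes have near-identical copies. Fragments could thus be divided unevenly. Oaz1-ps, a pseudogene of the polyamine regulator Oaz1, was listed at 0.0288, 134 and 128 in CTL_0h, 139.6, 105 and 170.3 in PPA_0h, 82.02, 58.2 and 17.1 in CTL_6h and 4.16, 0 and 0 in PPA_6h FPKM (difference -7.08 ± 2.03), and Oaz1 itself at 466, 417 and 547 in CTL_6h and 411.5, 403 and 415 in PPA_6h. Gm5424, a pseudogene of Ass1, was at 402, 841 and 1251 FPKM in CTL_0h, 1144, 1179 and 1178 in PPA_0h, 1248, 969.8 and 940.3 in CTL_6h and 908, 299 and 278 in PPA_6h. Ass1 itself was at 1119.5, 841 and 1177 in CTL_6h and 1198, 1359 and 936 in PPA_6h, so its groups overlapped. Mup1, 1 of 20 rows of major urinary proteins, was at 157, 77.1 and 142 FPKM in CTL_0h, 637, 209 and 608 in PPA_0h, 294, 566 and 294 in CTL_6h and 317, 229 and 208 in PPA_6h, while the 20 rows together ran from 11025 to 16521 FPKM in CTL_6h and 11693 to 13886 in PPA_6h. Also among the 10 lowest, Gja4, the gap junction protein connexin 37, rose in control mice (1.79 ± 0.33) and had -0.12 ± 0.33 in PPA mice without a call. Its difference was -1.91 ± 0.46, and Obp2a, an odorant binding protein, differed by -2.43 ± 0.62. Copies of Gja4 and Obp2a were not looked up.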

How the data were processed

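Liver RNA of 12 libraries was measured by sequencing after poly(A) selection, per the labels' protocols. The deposited values are FPKM, computed by the authors. The submitters' processing notes name Cuffdiff 2.1.1, HISAT2 2.1.0, SAMtools 0.1.18-r580, Cufflinks without a version, and mm10. Which annotation, settings and strand rule were applied is not given in the sources used here. Per library the FPKM values summed to 593025 to 769104.

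Groups came from the sample titles. Rows with at least 1 FPKM in at least 3 libraries were kept (10086), then Alb and Apoe, whose zeros were taken as failed estimates, and short RNA rows were left out, leaving 10084 and then 10044. The table has 27 rows with symbols turned into date serials, which are not named. On log2(FPKM + 1), limma 3.58.1 in R 4.3.3 fitted 1 mean per group over all libraries with trended empirical Bayes moderation, 8 residual degrees of freedom and Benjamini-Hochberg adjustment over all tested rows. The tests are two-sided. Folds on this scale understate changes of low genes. The fit was tested on simulated data with known differences, where each gene had the same spread in every library. That simulation cannot show how the fit behaves when libraries differ in spread.

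Named genes were those called, the 10 highest and 10 lowest estimates with unadjusted p under 0.01 whose highest group averaged 5 FPKM or more, up to 3 members per list with the smallest p, and 17 genes chosen by name. Not all of the 138 genes this gives are printed, and Calcoco1 lies outside the rule. The comparison, its gene lists (34 on function, 11 on cell markers) and the rule were chosen with earlier results of these data known. Counts of list members stand beside the share of all genes and carry no test.

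Depth was estimated from the spacing of low FPKM values in genes of at least 3000 bases with 1 transcript, and it was higher at 6 h, so depth and time cannot be told apart. Promoter windows are from RefSeq (GRCm38.p6), where 74 of 95 genes looked up had a window, and coordinates from GENCODE vM21 (GRCm38). Alternatives changed the pseudocount, filter, scaling, moderation, sample weights, row handling and replicate block, and left out each library. Tables and figures used Python 3.11.15, pandas 2.3.3 and matplotlib 3.10.9.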

Additional observations from a re-analysis of the deposited data

Results flagged for a closer look

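H2-Q8 was the one gene whose APAP response differed between PPA and control mice by the test of the difference itself, at -2.99 on the log2 scale (adjusted p = 0.0386 in limma). It is shown above together with its copy H2-Q6, whose levels mirror it. Groups of 3 libraries are too small to test a single library as an outlier.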

How the results depend on the processing

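Of 10044 genes, 0 were called higher and 1, H2-Q8, lower. The lower count was 0 with a pseudocount of 5, upper quartile scaling, sum scaling, short RNA rows kept, or the replicate block, and 0 with all H2-Q rows or only H2-Q6 and H2-Q8 summed, 2 settings chosen after seeing the data. Without a filter on low values the 1 lower call was Hist1h4j in place of H2-Q8, whose adjusted p in limma was then 0.137. Sample quality weights gave 223 higher and 300 lower calls, but their fit stopped before it converged, with weights from 0.318 for CTL_6h_3 to 6.3 for CTL_6h_2. Leaving out 1 library at a time gave 0 to 13 higher and 0 to 35 lower calls, with the highest counts without CTL_6h_3. The number of genes at unadjusted p under 0.05 was 601 without CTL_6h_2, 1629 without CTL_6h_3, 663 with the replicate block and 2489 with weights, against 930. Among the 95 genes looked up for the text, 2445 values across alternatives kept their direction and side of the threshold, 81 became called (62 with the weights) and 16, all of H2-Q8, were lost. The difference of Cyp1a2 turned positive with upper quartile (0.065), median ratio (0.000479) and sum scaling (0.081) and with weights (0.033), and that of Ddit3 turned negative with the replicate block (-0.32). Estimates that changed sign when a library was left out ran from -0.16 to 0.24 for Cyp1a2, -0.20 to 0.52 for Ddit3, -0.069 to 0.30 for Atf3 and -0.11 to 0.23 for Ppara. For all of these the cause was not tested. Same-numbered libraries did not deviate together over all genes (r of -0.28 to 0.09 over 9 pairs, 0 above 0.1). The labels do not say what the number stands for. These correlations cannot show whether same-numbered libraries share an origin or a handling step. The 3 scalings moved the median of all genes to between -0.00903 and 0.06. Estimated depth was lowest at 0 h, so genes of low FPKM are least precise there.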
